A study of Homo sapiens with 12 samples.

Results

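The interaction of HPA-12 and crenolanib is the part of the response to both compounds that the responses to each compound do not add up to. For each gene it was the difference that HPA-12 made in crenolanib-treated cells minus the difference that HPA-12 made in cells without crenolanib, on the scale of log2(FPKM + 1). FPKM are fragments scaled to transcript length and library size, and the value of 1 added before taking logs keeps genes at 0 on the scale but shrinks the differences of genes with low FPKM. All 12 libraries of the series were used, and the genes were those with at least 1 FPKM in 3 or more libraries, which were 11149 of the 20036 genes in the table. The cells were MV-4-11, an established human acute myeloid leukaemia line that carries an activating FLT3 mutation and a KMT2A fusion, labelled with the tissue bone marrow and the genotype WT. Each of 4 groups held 3 libraries of total RNA: DMSO (the solvent), HPA-12 ((1R,3S)-HPA-12, which blocks the ceramide carrier CERT), crenolanib (an inhibitor of the FLT3 kinase) and the combination of HPA-12 with crenolanib. The treated groups were sampled at 48 h, no time is given for DMSO, and no dose is stated in the labels. The labels number the libraries of a group without naming separate cultures, so p-values reflect how these libraries vary, and that variation may be technical.

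A gene is called raised when the combination libraries lay above the additive expectation, which is the log2 level with HPA-12 plus that with crenolanib minus that with DMSO, and lowered when they lay below it. A raised gene need not be higher than in DMSO, and a lowered gene need not have fallen. Calls had an adjusted p under 0.05 (limma, 2-sided, adjusted over all genes tested), interactions are given in log2 units with their fitted standard error, and 1 log2 unit is a 2-fold departure from the expectation. Levels are rescaled FPKM in library order. Each library was divided by its scaling factor, 0.69 to 0.70 for the combination and 1.11 to 1.18 for the others. This raised the combination against the other groups, so orders of levels that involve it can differ with FPKM as deposited.

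CERT carries ceramide from the endoplasmic reticulum to the Golgi, where it is turned into sphingomyelin. FLT3 is a receptor tyrosine kinase of blood progenitors that signals through STAT5, RAS-MAPK and PI3K-AKT, and leukaemias with a mutated FLT3 rely on it. The title of the series names a stress axis of 3 proteins of the endoplasmic reticulum response, GRP78 (gene HSPA5, the main chaperone of that compartment), ATF6 (a membrane-bound factor released by misfolded protein) and CHOP (gene DDIT3, a factor of prolonged stress). A combination of inhibitors can act on a gene as the sum of its parts or otherwise, and the interaction is the term that separates these cases.

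The combination libraries stood apart from the other 9. The 13 mitochondrially encoded genes held 19.59 to 20% of the summed FPKM with DMSO, 21.14 to 22.08% with HPA-12, 35.92 to 36.16% with crenolanib and 61.65 to 62.61% with the combination. A combination library listed 7894 to 8049 genes at 0 and each other library 4792 to 5217. The median SD of a gene within its group was 0.364 log2 units in the combination and 0.071, 0.092 and 0.118 in DMSO, HPA-12 and crenolanib. Every interaction rests on the combination libraries, so their spread sets its precision, and the part that their RNA makeup has in the results was not tested. Of 10 markers of the myeloid leukaemia line, 9 were above 0 in all 12 libraries. Lymphoid markers summed to 57.4 to 59.6 FPKM with DMSO, 46.9 to 52.2 with HPA-12, 26.1 to 36.7 with crenolanib and 40.2 to 44.1 with the combination, with 2 of 12 above 0 in every library. Stromal, endothelial and epithelial markers summed to 14.1 to 15.5, 54.8 to 59.7, 25.2 to 28.3 and 16.2 to 45.9 in the same order, with 3 of 12 above 0 in every library and KRT19 at 0 in all. In these bulk samples fewer cells of a kind and less RNA per cell cannot be told apart.

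Departures from additivity were common in both directions. Of 11149 genes, 2737 (24.5%) were raised and 3109 (27.9%) were lowered, 5846 (52.4%) in all, and 6473 had an unadjusted p under 0.05. The shares of 24.5% and 27.9% are the background for the counts of every gene list below. By more than 1 log2 unit 1969 were raised and 2093 lowered, and by more than 2 units 654 were raised and 406 lowered. The median interaction was -0.13, with the middle 50% of genes between -0.83 and 0.71, and the median standard error was 0.29. The sign was the same for all 2737 raised and for 3086 of the 3109 lowered genes when FPKM were added in place of log2 values. The additive expectation was below 0 FPKM, a level that no gene can reach, for 211 genes, of which 149 were raised and 0 lowered. Both single effects are subtracted in the interaction, and the calls ran against them. Of 3002 genes that each compound raised alone, 62% were lowered and 5% raised. Of 2965 that each lowered alone, 55.9% were raised and 1.79% lowered. Gene lists below that move 1 way with both compounds are to be read against these shares.

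The split between raised and lowered genes depended on how libraries were scaled. Raised genes made up 46.8% of the calls here, 41.8% with upper-quartile factors, 23.4% with FPKM as deposited (1699 raised, 5555 lowered) and 21% with libraries divided by their sum without mitochondrial genes (1552 and 5854). The last 2 moved the median interaction of all genes from -0.13 to -0.65 and -0.73, so directions below are relative to the bulk of genes. The all-gene median and the quartiles stand beside each gene list in the plot by gene list for that reason.

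The 2 effects of HPA-12 that the interaction compares, which share no library, can be set side by side. Without crenolanib, HPA-12 changed 8602 genes (77.2%), 4678 up and 3924 down, and beside crenolanib it changed 3024 (27.1%), 1573 up and 1451 down. That contrast depended on the spread model. With 1 spread for all groups, 2658 genes were up and 2474 down alone, and 2188 up and 2915 down beside crenolanib. The median absolute effect of HPA-12 was 0.44 log2 units alone and 0.45 beside crenolanib. Of the 4678 genes that HPA-12 raised alone, it raised 416 (8.9%) and lowered 912 (19.5%) beside crenolanib, and those 912 were 62.9% of all genes that it lowered there. Of the 3924 that it lowered alone, it lowered 291 (7.4%) and raised 724 (18.5%), which were 46.0% of all that it raised there. The remaining 3350 and 2909 genes were not called beside crenolanib, where the wider spread of the combination libraries also lowers the number of calls. Across the 11149 genes, which are not independent replicates and share the scaling factors, the 2 effects of HPA-12 correlated at r = -0.22 (Spearman rho = -0.28). For the 6231 genes averaging 5 FPKM or more the values were -0.22 and -0.30. The 2 effects of crenolanib, without and with HPA-12, correlated at r = 0.30 and rho = 0.14. Among genes called in both settings the sign was opposite for 1636 and the same for 707. The counts beside crenolanib depended on scaling: with FPKM as deposited 784 genes were up and 5501 down, and with the sum without mitochondrial genes 798 and 5445. The genes called in both were then of opposite sign for 3260 and of the same sign for 1772, and for 3541 and 1559, with 297 and 280 in place of the 724 and 2963 and 3261 in place of the 912.

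**Figure D1:**
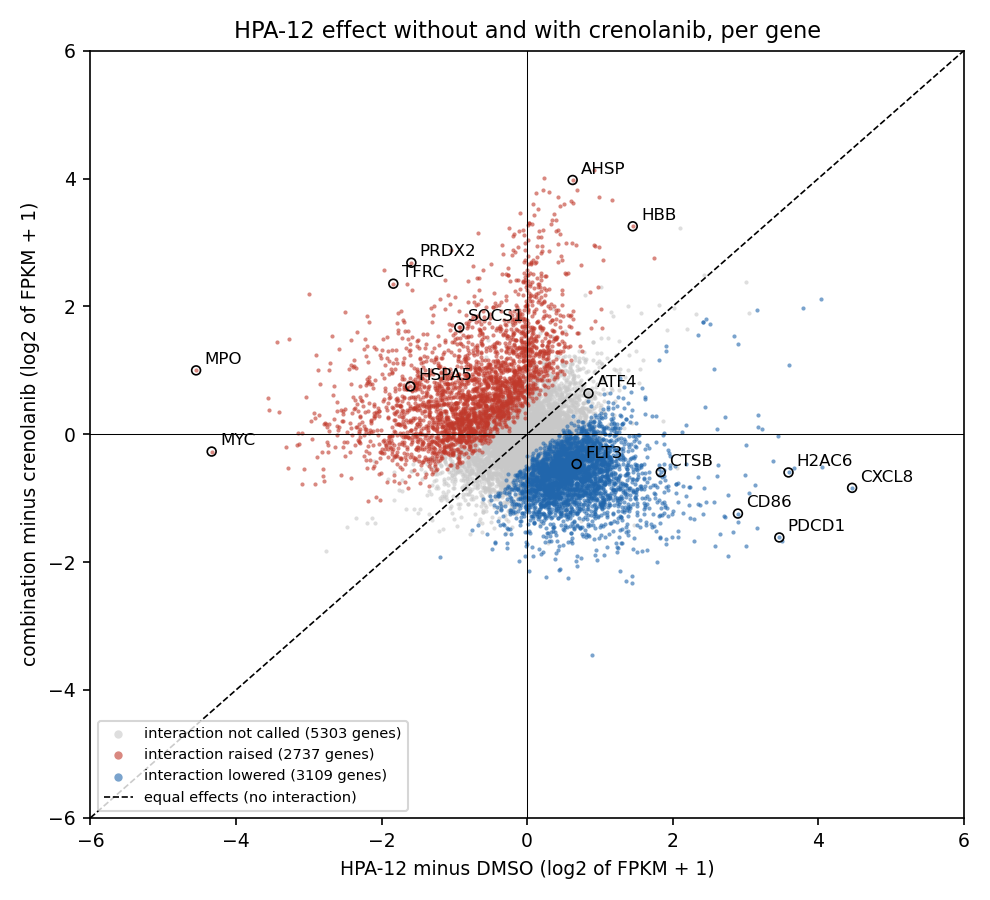
Each point is 1 of 11149 genes, with the HPA-12 effect without crenolanib on the x axis and with crenolanib on the y axis, both as differences of group means (3 libraries each) in log2(FPKM + 1). Distance from the dashed line of equal effects is the interaction; 2737 genes (red) lie above it and 3109 (blue) below it as calls, and MPO (-4.55, 1.00) and CXCL8 (4.47, -0.84) lie far out in opposite corners.

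Neutrophil granule proteins, the enzymes and antimicrobial proteins that granulocyte precursors store, held the most raised of all genes tested. MPO, the myeloperoxidase of those granules, had 349.8, 342 and 349.6 FPKM with DMSO, 14.8, 12.8 and 14.1 with HPA-12, 307, 312 and 306 with crenolanib and 639, 611 and 604 with the combination. The HPA-12 libraries were low and the combination libraries the highest, with no overlap between any 2 groups. The additive expectation was 12.2 FPKM, which the combination passed by 46.8-fold on the FPKM + 1 scale (interaction 5.55 ± 0.08, adjusted p = 1.8e-17).

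CTSG, a serine protease of the same granules, had 141, 136 and 150.3 FPKM with DMSO, 20.6, 20.2 and 23.5 with HPA-12, 112, 119.8 and 124 with crenolanib and 346, 361 and 331 with the combination (4.21 ± 0.11). Its order of groups was that of MPO. AZU1, the antimicrobial protein azurocidin, fell less with HPA-12 alone (-0.53 ± 0.06) and had an interaction of 1.5 ± 0.09. LYZ, the lysozyme gene, differed from these 3 in that the combination stayed below crenolanib, with 240.0, 263 and 224 against 318, 326 and 316 FPKM. Its interaction was nonetheless 1.81 ± 0.09, since HPA-12 lowered it by 2.21 ± 0.06 alone and by 0.40 ± 0.07 beside crenolanib.

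Of 17 granule genes 15 were raised and 0 lowered, against 24.5% raised over all genes, with a median of 2.04. Their summed level was 2616 to 2881 FPKM with DMSO, 1084 to 1143 with HPA-12, 2608 to 2639 with crenolanib and 3663 to 3965 with the combination. That order depended on the scaling. With FPKM as deposited, the combination sum lay below those of DMSO and crenolanib. Of 17 monocyte markers, 3 were raised and 7 lowered (median -0.32), against 24.5% and 27.9% over all genes. That median was 0.03 without combination replicate 1, -0.60 without combination replicate 2 and -0.05 with a pseudocount of 4 FPKM. CD86, a co-stimulatory ligand, had 24.6, 24 and 25.9 FPKM with HPA-12, 13.2, 13.7 and 16 with crenolanib and 6.25, 5.3 and 4.86 with the combination, against 2.45, 2.39 and 2.56 with DMSO (-4.14 ± 0.24). CSF1R, the receptor of macrophage colony-stimulating factor, was lowered too (-2.19 ± 0.23), while CD36, a scavenger receptor found on monocytes and on red cell precursors (1.71 ± 0.17), and the integrin ITGAM (1.32 ± 0.22) were raised.

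Genes of the red cell programme were raised, globin and membrane genes on top of increases with crenolanib alone (median effects of 3.72 and 2.39). The median effects of crenolanib alone were smaller for haem and iron genes (-0.05) and erythroid factors (0.41), but members differed. ALAS2 rose by 4.11 ± 0.08 with crenolanib alone, and GATA1 and KLF1 rose too, with levels given below. Haemoglobin is built from globin chains and haem, and red cell precursors make both together with a spectrin-based membrane skeleton. Of 9 tested globin genes, including the globin chaperone, 9 were raised (median 2.72), of 21 genes for red cell membrane proteins, blood groups and enzymes 21 (median 2.57), of 16 haem and iron genes 13 with 2 lowered (median 2.12), and of 12 erythroid and megakaryocytic factors 10 with 0 lowered (median 1.43). In the combination libraries the mitochondrially encoded genes were raised as well, all 13 of them (median 2.06, range 1.70 to 2.64). MT-ND4, a complex I subunit, had 3291, 2886 and 3234 FPKM with DMSO and 34560, 35450 and 35740 with the combination (2.37 ± 0.09).

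Promoters of 3 red cell genes are printed with the letters that erythroid factors are known to read, and that of CXCL8, the most lowered gene, with those of an AP-1 site. Each run is the 160 bases before the annotated start (RefSeq, GRCh38.p14, read 5′ to 3′ on the strand of the gene), and the 4 were chosen after their matches were seen. Capitals mark 3 motifs on either strand, with overlapping matches run together. The motif read by factors of the GATA family is AGATAA. The motif bound by KLF1 and related factors, known as the CACCC box, is searched as CCACCC here. The motif of AP-1 dimers is searched as TGAGTCA here, and it is marked in CXCL8 and also in ALAS2, a raised gene. EPB42 lies at chr15:43221019-43221178 on the minus strand, KEL at chr7:142962364-142962523 on the minus strand, ALAS2 at chrX:55030978-55031137 on the minus strand and CXCL8 at chr4:73740409-73740568 on the plus strand.
EPB42: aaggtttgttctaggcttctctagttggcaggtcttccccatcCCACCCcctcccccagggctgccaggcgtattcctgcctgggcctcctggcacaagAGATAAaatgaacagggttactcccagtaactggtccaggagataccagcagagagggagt
KEL: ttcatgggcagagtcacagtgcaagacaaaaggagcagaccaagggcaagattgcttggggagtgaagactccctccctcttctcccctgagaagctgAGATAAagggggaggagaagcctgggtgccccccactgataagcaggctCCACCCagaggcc
ALAS2: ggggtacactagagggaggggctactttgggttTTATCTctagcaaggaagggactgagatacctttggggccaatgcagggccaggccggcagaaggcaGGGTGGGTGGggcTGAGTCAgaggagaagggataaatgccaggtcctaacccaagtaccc
CXCL8: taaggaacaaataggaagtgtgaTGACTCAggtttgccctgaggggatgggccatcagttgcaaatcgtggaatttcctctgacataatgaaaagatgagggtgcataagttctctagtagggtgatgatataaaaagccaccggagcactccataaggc

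Searched on both strands, AGATAA was in 5 of the 13 promoters found for the red cell membrane list (38.5%), in 2 of 11 for haem and iron genes (18.2%), in 198 of the 9058 found for tested genes (2.2%) and in 1546 of all 27305 windows of that length (5.7%). Over all raised genes the share was 2.1% and over all lowered genes 2.2%, so the match did not separate the 2 directions as a whole. It was 3.5% for genes raised and 2.7% for genes lowered by more than 2 log2 units. Among lists of other kinds it was in 2 of 16 immediate early genes (12.5%) and in 0 of 18 heat shock chaperones. CCACCC was in 5 of the 13 as well, against 25.3% for tested genes. TGAGTCA was in 13 of 328 promoters of genes lowered by more than 2 log2 units (4.0%), in 4 of 511 of genes raised by more than 2 (0.8%), in 1.9% of all lowered, 1.3% of all raised and 1.7% of all tested genes, and in 2.9% of all windows. These are matches of letters only, and no binding was measured.

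EPB42, the membrane protein band 4.2, had 0.115, 0.353 and 0.330 FPKM with DMSO, 0.470, 0.597 and 0.602 with HPA-12, 8.93, 8.59 and 9.22 with crenolanib and 139, 128 and 140.2 with the combination (3.48 ± 0.15). KEL, the Kell blood group protein, had 0.184, 0.354 and 0.318 with DMSO, 0.416, 0.306 and 0.464 with HPA-12, 5.06, 5.83 and 6.73 with crenolanib and 92.1, 92.9 and 92.6 with the combination (3.65 ± 0.15). Both genes were near 0 with DMSO or HPA-12 and were highest with the combination, without overlap of the crenolanib and combination libraries. CA1, a carbonic anhydrase of red cells (3.13 ± 0.09), and GYPC, a glycophorin that anchors the membrane skeleton (3.25 ± 0.14), gave interactions of like size.

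HBB, the beta globin, had 61.0, 59.2 and 66.5 FPKM with DMSO, 182, 166 and 168 with HPA-12, 3748, 3515 and 3553 with crenolanib and 34240, 34400 and 34510 with the combination. It rose in every treated group, and its 4 groups did not overlap. The expectation was 9860 FPKM and the interaction 1.80 ± 0.08 (adjusted p = 2.8e-11), 1 of the smaller values among the globin genes because HPA-12 raised HBB alone by 1.45 ± 0.08. AHSP, which binds free alpha globin, went from 75, 64.9 and 67.7 FPKM with crenolanib to 1146, 1097 and 1067 with the combination (3.35 ± 0.19), with at most 2 FPKM in any DMSO or HPA-12 library. HBD, the delta globin, had an interaction of 2.73 ± 0.15 and HBM, the mu globin, of 3.22 ± 0.16. Alpha and gamma globin come from pairs of near-identical genes, between which reads may be split. Globin genes summed to 62.7 to 70.7 FPKM with DMSO, 177 to 192 with HPA-12, 3724 to 3956 with crenolanib and 37520 to 37639 with the combination, and red cell membrane genes to 34.3 to 39.1, 55.6 to 58.2, 316 to 327 and 3474 to 3640.

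Haem and iron genes were raised from different single effects. ALAS2, the first enzyme of haem synthesis in red cell precursors, had 4.14, 3.73 and 3.38 FPKM with DMSO, 6.10, 5.64 and 6.90 with HPA-12, 89.3, 75.1 and 79.5 with crenolanib and 1070, 999.6 and 1008 with the combination (3.04 ± 0.12). It rose with each compound. TFRC, the transferrin receptor that brings iron into the cell, had 26.9, 28.9 and 28.0 with DMSO, 7.22, 7.01 and 7.04 with HPA-12, 31.1, 31.3 and 31.4 with crenolanib and 169, 153 and 171 with the combination (4.19 ± 0.10). In TFRC the HPA-12 libraries were the lowest and the combination libraries the highest of the 12.

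SLC25A37, the mitochondrial iron importer, was raised by 3.38 ± 0.11 and the haem enzyme UROD by 3.15 ± 0.13. HMOX1, which breaks haem down, was 1 of the 2 lowered members, with 25.5, 21.7 and 24.2 FPKM with HPA-12, 129, 120.1 and 119 with crenolanib and 38.5, 31.2 and 41.8 with the combination, against 9.76, 9.52 and 9.49 with DMSO (-2.93 ± 0.16). HMOX1 was above DMSO in every treated group, and lower with the combination than with crenolanib.

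Lineage factors were raised too. GATA1, the master factor of red cell and platelet precursors, had 0.434, 0.375 and 0.458 FPKM with DMSO, 0.982, 1.31 and 0.787 with HPA-12, 4.24, 4.39 and 4.37 with crenolanib and 65.8, 64.7 and 60.9 with the combination (3.10 ± 0.16). KLF1, the factor of adult globin expression, had 6.96, 7.70 and 4.64 with crenolanib and 76.9, 46.2 and 39.7 with the combination (2.65 ± 0.26). Both were near 1 FPKM in the DMSO and HPA-12 libraries. NFE2 (3.08 ± 0.15) and GFI1B (2.81 ± 0.23), also factors of these lineages, were lowered by HPA-12 alone and raised by it beside crenolanib.

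**Figure D2:**
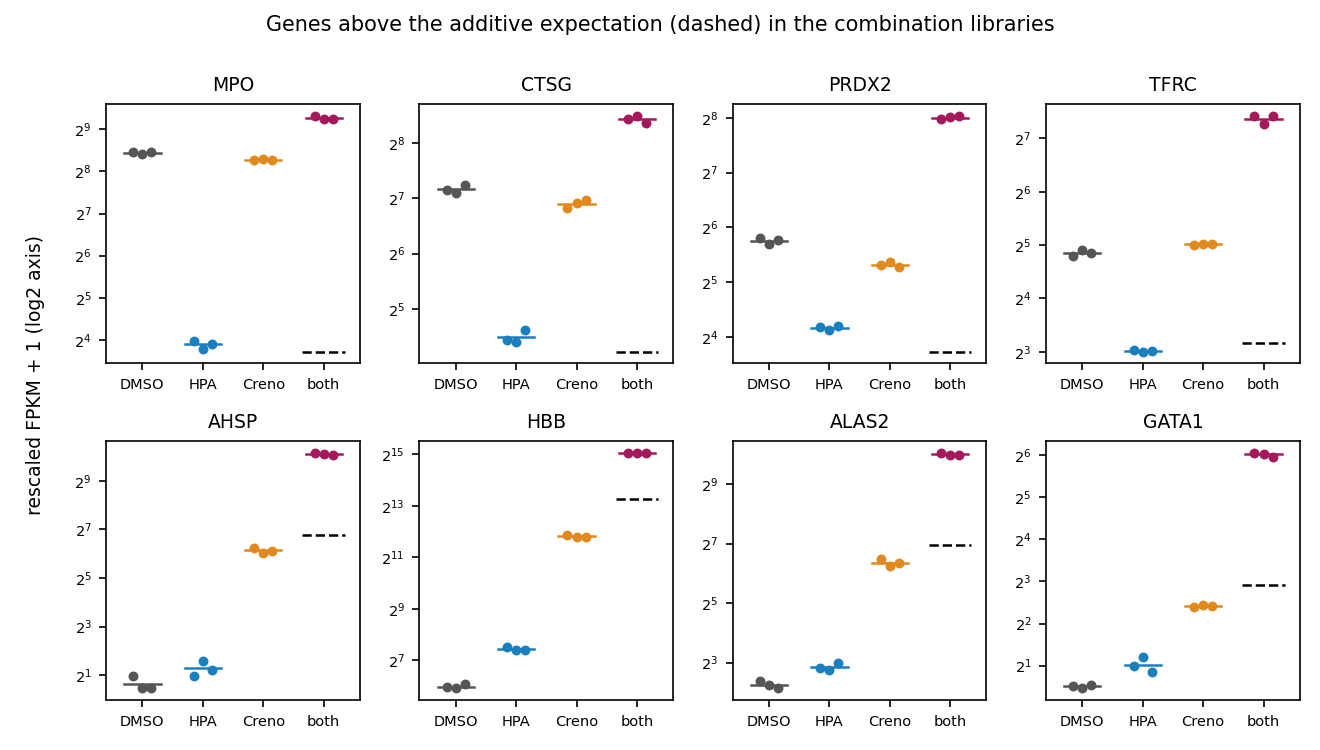
Rescaled FPKM + 1 of 8 raised genes on a log2 axis, 1 point per library and a bar at the group mean of rescaled FPKM. The dashed line is the additive expectation for the combination, taken from group means of log2 values. In MPO, CTSG, PRDX2 and TFRC the HPA-12 libraries are the lowest of all 12 and in AHSP, HBB, ALAS2 and GATA1 crenolanib lies between HPA-12 and the combination, and in all 8 the 3 combination libraries lie above the expectation, 12.2 FPKM for MPO and 9860 FPKM for HBB.

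Among the genes of the stress axis in the title, the chaperone was raised and its factors were not. HSPA5 (GRP78) had 78.1, 72.1 and 69.3 FPKM with DMSO, 23.7, 23.0 and 23.4 with HPA-12, 54.7, 56.8 and 56.0 with crenolanib and 103, 90.0 and 91.4 with the combination. After rescaling, HPA-12 lowered it alone (-1.60 ± 0.06) and raised it beside crenolanib (0.75 ± 0.10), and the combination libraries were the highest of the 12. With FPKM as deposited, the combination libraries lay below those of DMSO and overlapped those of crenolanib. The expectation was 17.7 FPKM and the interaction 2.35 ± 0.12 (adjusted p = 1.5e-10). With the sum without mitochondrial genes the interaction was 1.55 and still called.

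ATF6 had 3.85, 3.98 and 3.74 FPKM with DMSO, 5.33, 5.60 and 5.36 with HPA-12, 6.17, 5.42 and 6.01 with crenolanib and 4.34, 8.36 and 2.21 with the combination. The combination libraries spanned the range of all others. The interaction of -0.74 ± 0.28 passed narrowly (adjusted p = 0.038) and did not pass without combination replicate 3 (-0.36), without any of 6 other single libraries (-0.71 to -0.73), or with 1 spread for all groups. It was -1.14 without combination replicate 2. DDIT3 (CHOP) had 1.59, 1.74 and 2.67 FPKM with DMSO, 2.06, 2.73 and 2.18 with HPA-12, 1.02, 5.76 and 2.05 with crenolanib and 3.73, 10.0 and 2.17 with the combination. All 4 groups overlapped, and the interaction of 0.50 ± 0.79 did not pass (adjusted p = 0.62), was -0.04 with FPKM as deposited and was -0.00 without combination replicate 2. Single libraries set both values, and the combination libraries of each gene differed by several fold.

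XBP1, the factor that drives folding and degradation genes, had 56.6, 52.8 and 51.5 FPKM with DMSO, 21.3, 18.5 and 20.5 with HPA-12, 28.3, 25.8 and 29.9 with crenolanib and 31.2, 47.2 and 59.1 with the combination (2.02 ± 0.19). The 3 combination libraries were uneven, with 1 above the DMSO libraries and the others below them, and all lay above the crenolanib and HPA-12 libraries. With FPKM as deposited, all 3 lay below the DMSO libraries and they overlapped the crenolanib libraries. ATF4, the factor of the integrated stress response, had 77.7, 75.9 and 79.5 with DMSO, 147, 136 and 139 with HPA-12, 132, 121 and 126 with crenolanib and 225, 204 and 166 with the combination. It rose with each compound and was highest with both after rescaling. With FPKM as deposited, its combination libraries lay below those of HPA-12 alone. Its interaction of -0.20 ± 0.12 did not pass (adjusted p = 0.15). It did pass as lowered with upper-quartile factors (-0.34), with FPKM as deposited (-0.92), with the sum without mitochondrial genes (-1.02) and without combination replicate 1 (-0.30), and its sign was positive when FPKM were added.

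The genes of the compounds' targets were below additivity. CERT1, the target of HPA-12, had 1.42, 1.46 and 1.40 FPKM with DMSO, 2.42, 2.84 and 2.82 with HPA-12, 3.98, 3.93 and 4.27 with crenolanib and 4.13, 4.67 and 2.37 with the combination. The interaction of -0.74 ± 0.26 (adjusted p = 0.027) did not pass with a pseudocount of 4 FPKM (-0.38) or without combination replicate 3 (-0.52). FLT3, the target of crenolanib, had 84.7, 83.0 and 84.5 with DMSO, 135, 134 and 137 with HPA-12, 121, 112 and 116 with crenolanib and 80.5, 82.1 and 89.8 with the combination. Each compound raised FLT3 and the combination libraries overlapped those of DMSO (-1.15 ± 0.11, adjusted p = 2.5e-07). With FPKM as deposited, the combination libraries of FLT3 lay below those of DMSO.

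**Figure D3:**
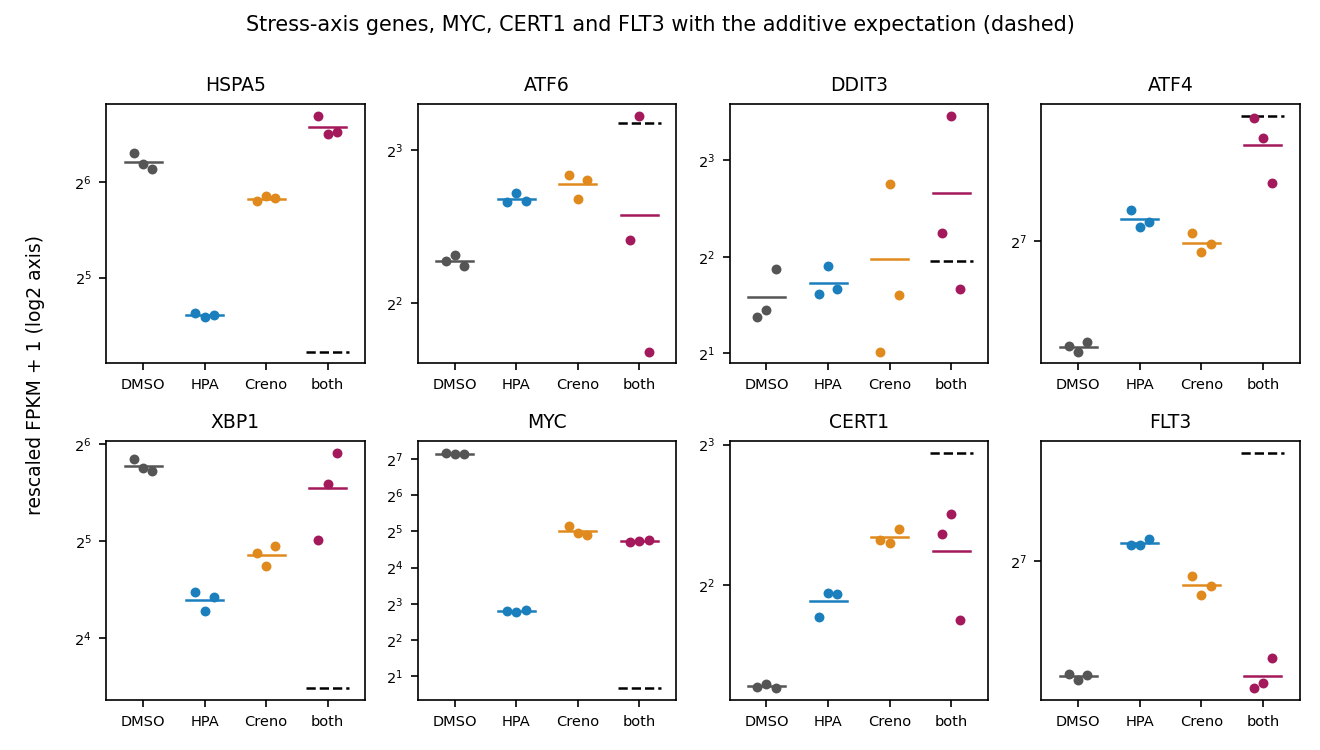
Rescaled FPKM + 1 of HSPA5, ATF6, DDIT3, ATF4, XBP1, MYC, CERT1 and FLT3 on a log2 axis, 1 point per library. Bars mark the group mean of rescaled FPKM and the dashed line the additive expectation from means of log2 values. HSPA5, XBP1 and MYC lie above the expectation in the combination (17.7, 10.2 and 0.592 FPKM), FLT3 lies below it (187 FPKM), and the combination libraries of ATF6 and DDIT3 are spread over the range of the other groups.

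Around these genes, folding enzymes of the endoplasmic reticulum were mostly raised, and its degradation machinery held genes of both directions. Of 17 chaperones and folding enzymes 11 were raised and 1 lowered (median 0.88), among them CALR, a calcium-binding chaperone (1.86 ± 0.13), and SDF2L1, a partner of HSPA5 (2.85 ± 0.34). CALR had 594, 505 and 522 FPKM with DMSO, 154, 135 and 144 with HPA-12, 212, 207 and 200.0 with crenolanib and 214, 173 and 219 with the combination. It fell with each compound, and the combination libraries overlapped those of crenolanib after rescaling but lay below them with FPKM as deposited. Of 14 genes of ER-associated degradation, which feeds misfolded proteins to the proteasome, 3 were raised and 7 lowered (median -0.60). Over all genes 24.5% were raised and 27.9% lowered. EDEM1, which marks misfolded glycoproteins, had 39.8, 40.2 and 39.0 FPKM with HPA-12, 34.1, 37.5 and 36.3 with crenolanib and 13.4, 18.5 and 19.5 with the combination (-1.56 ± 0.18), and HERPUD1, a stress-induced component of the complex, was raised (1.37 ± 0.18).

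Targets of ATF4 and CHOP split. Of 22 genes 9 were raised and 5 lowered (median 0.46), a split that turned to 5 and 9 with FPKM as deposited (median -0.16, against -0.65 for all genes). SLC7A11, the cystine transporter, had 0.855, 0.913 and 0.897 FPKM with DMSO, 11.0, 14.8 and 13.6 with HPA-12, 17.6, 16.3 and 18.6 with crenolanib and 6.65, 6.82 and 5.07 with the combination (-4.27 ± 0.29). It rose with each compound and less with both. PSAT1, of serine synthesis, was raised (2.46 ± 0.20) after falling with each compound. DDIT4, an inhibitor of mTORC1, had 254, 234 and 282 FPKM with the combination against an expectation of 138 (0.89 ± 0.10), but that call was lost with FPKM as deposited (0.17) and with the sum without mitochondrial genes (0.08).

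Of 27 sphingolipid genes 5 were raised and 10 lowered (median -0.32, against -0.13 for all genes), counts that stood near the shares over all genes for the raised side and somewhat above for the lowered side. SGMS1, a sphingomyelin synthase that uses the ceramide that CERT delivers, had 0.708, 0.706 and 0.885 FPKM with DMSO, 0.475, 0.720 and 0.455 with HPA-12, 1.97, 1.99 and 2.10 with crenolanib and 8.41, 5.54 and 5.79 with the combination (1.5 ± 0.26). It was highest with the combination, at low levels throughout. ASAH1, the lysosomal enzyme that breaks ceramide down, had 6.44, 6.22 and 6.31 FPKM with DMSO. It had 12.3, 13.9 and 13.3 with HPA-12 and 12.3, 12.9 and 12.7 with crenolanib. The combination libraries were uneven, with 11.2, 13.8 and 7.89, and none passed the highest HPA-12 library (-1.17 ± 0.20).

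MYC, a transcription factor that drives growth and ribosome production, was far above its expectation although the combination left it low. It had 143, 139 and 138 FPKM with DMSO, 5.97, 5.91 and 6.10 with HPA-12, 34.5, 30.1 and 28.9 with crenolanib and 25.1, 25.6 and 26.2 with the combination. Each compound lowered MYC, HPA-12 by 4.33 ± 0.07 and crenolanib by 2.14 ± 0.06, and the sum of both would have been 0.592 FPKM. That expectation lies near the floor of 0 FPKM. The combination lay between the single treatments, near crenolanib (4.06 ± 0.17, adjusted p = 1.7e-11). MXD1, an antagonist of MYC, went the other way, with 99.3, 94.6 and 95.1 with HPA-12, 94.8, 93.9 and 89.2 with crenolanib and 47.9, 46.4 and 35.7 with the combination (-2.55 ± 0.14). Of 11 MYC network factors 4 were raised and 4 lowered, against 24.5% and 27.9% over all genes.

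The growth programme that MYC is known for shared its pattern. HPA-12 lowered it without crenolanib, with little or no loss beside crenolanib, which lowered it alone. Over all genes, 55.9% of those that each compound lowered alone were raised. Of 25 genes of ribosome biogenesis 23 were raised and 1 lowered (median 2.19), with a median HPA-12 effect of -1.89 alone and 0.13 beside crenolanib. The median effect of crenolanib alone was -1.0, and the combination stayed below DMSO by a median of -0.75. BOP1, a ribosome assembly factor, had 59.8, 54.2 and 56.7 FPKM with DMSO, 9.70, 8.02 and 8.96 with HPA-12, 18.9, 18.3 and 15.9 with crenolanib and 23.4, 24.0 and 22.6 with the combination (2.93 ± 0.19). NPM1, the nucleolar protein nucleophosmin, had 69.7, 65.0 and 63.9, then 20.5, 23.4 and 23.7, then 53.5, 50.6 and 52.3, and 88.8, 90.1 and 89.1 in the same order (2.28 ± 0.12). BOP1 stayed below DMSO with the combination and NPM1 passed it after rescaling, but NPM1 too lay below DMSO with FPKM as deposited.

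Cytosolic ribosomal proteins had another pattern: 25 of 26 were raised and 0 lowered (median 1.31), while the median effects of HPA-12 and of crenolanib alone were 0.11 and 0.13. RPS6, of the small subunit, had 351, 334 and 368 FPKM with DMSO, 372, 354 and 386 with HPA-12, 577, 594 and 573 with crenolanib and 1758, 1726 and 1724 with the combination (1.5 ± 0.07). RPL32, of the large subunit, was raised by 1.55 ± 0.08. RPS6 rose with crenolanib, not with HPA-12 alone (0.08 ± 0.06), and was highest with the combination.

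Protein quality control and energy genes were mostly above additivity. Of 20 heat shock chaperones 17 were raised and 0 lowered (median 1.76). HSPA8, the constitutive HSP70, had 588, 535 and 537 FPKM with DMSO, 73.8, 71.1 and 73.4 with HPA-12, 208, 220.4 and 217 with crenolanib and 265, 252 and 250.1 with the combination (3.16 ± 0.10). HSPA1A, the inducible HSP70, had 25.8, 26.9 and 26.4, then 13.7, 11.0 and 11.2, then 37.3, 40.4 and 41.5, and 203, 162 and 189 (3.27 ± 0.13). The constitutive gene stayed below DMSO with the combination and the inducible gene passed every other group; HSPA1A and its neighbour HSPA1B are near-identical copies, so reads may be split between them. Of 22 proteasome subunits 16 were raised and 0 lowered (median 0.82), with PSMA7 of the core particle at 1.80 ± 0.12. Of 26 nuclear genes of oxidative phosphorylation 17 were raised and 1 lowered (median 0.96), with cytochrome c, CYCS, at 2.26 ± 0.18.

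Of 20 glycolytic genes 14 were raised and 4 lowered (median 1.00). TPI1, triosephosphate isomerase, fell with each compound and was raised by 2.33 ± 0.11, and GAPDH by 1.25 ± 0.09. Of 28 DNA replication genes 19 were raised and 2 lowered (median 0.92), but 10 and 3 with FPKM as deposited (median 0.31) and 10 and 4 with the sum without mitochondrial genes (median 0.22). Among the raised was RRM2, a subunit of the enzyme that makes deoxynucleotides. RRM2 had 8.59, 8.46 and 8.53 FPKM with DMSO, 7.33, 7.01 and 6.95 with HPA-12, 7.86, 7.41 and 7.83 with crenolanib and 24.1, 33.1 and 40.1 with the combination (2.15 ± 0.16). Only the combination libraries of RRM2 were high. Of 25 mitosis genes 10 were raised and 3 lowered (median 0.46), but 2 and 9 with FPKM as deposited (median -0.20).

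Other genes far above additivity had varied roles. SLC38A5, a glutamine and serine transporter, had 14.4, 12.3 and 12.8 FPKM with DMSO, 0.777, 0.662 and 0.879 with HPA-12, 5.30, 4.33 and 6 with crenolanib and 23.0, 28.5 and 31.0 with the combination (5.19 ± 0.21). PYCR1, the last enzyme of proline synthesis, followed the same course (4.75 ± 0.29). The expectations of both were below 0 FPKM, so part of each departure was fixed by that floor. PRDX2, the peroxiredoxin of red cells, had 54.7, 51.1 and 53.8 with DMSO, 17.2, 16.5 and 17.3 with HPA-12, 38.8, 40.4 and 37.7 with crenolanib and 249.8, 256 and 262 with the combination (4.27 ± 0.09). It was lowest with HPA-12 and highest with the combination, as MPO was. EIF4EBP1, a brake on translation under mTORC1, was raised by 4.15 ± 0.23 and FKBP4, a co-chaperone of HSP90, by 4.13 ± 0.21.

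Among signalling genes, several that crenolanib induced were induced further by HPA-12, though HPA-12 alone had lowered them. SOCS1, a feedback inhibitor of JAK-STAT signalling, had 3.70, 4.31 and 4.30 FPKM with DMSO, 1.67, 1.41 and 1.98 with HPA-12, 149.7, 138 and 152 with crenolanib and 466, 458 and 484 with the combination (2.60 ± 0.12). DUSP2, a MAPK phosphatase, had 7.04, 5.78 and 7.27, then 1.05, 1.56 and 1.55, then 64.1, 63.2 and 68.4, and 209.9, 227 and 234 (3.45 ± 0.14). In both genes the groups did not overlap, and HPA-12 moved them down without crenolanib and up with it. EGR1, an early growth response factor, had 2.29, 2.40 and 2.04 with DMSO, 0.833, 1.00 and 0.758 with HPA-12, 228, 215 and 243 with crenolanib and 621, 555 and 492 with the combination (2.07 ± 0.13). FOSB, an AP-1 subunit, gave 1.99 ± 0.13.

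ARC, an early response gene best known from neurons, had at most 0.291 FPKM without crenolanib, 639.9, 647 and 628 with crenolanib and 1682, 1562 and 1806 with the combination. Its interaction was 1.19 ± 0.08, and 0.75 with a pseudocount of 0.25 FPKM, a setting that matters for a gene near 0 in 6 libraries. Growth arrest genes followed: GADD45B had 615, 558 and 600.4 with crenolanib and 1769, 1587 and 1581 with the combination (1.62 ± 0.11), and GADD45G 44.1, 56.3 and 59.3 and 264, 336 and 297 (2.21 ± 0.17). All were highest with the combination. As a list, 21 immediate early genes split into 6 raised and 11 lowered (median -0.49), and into 7 and 8 with a pseudocount of 4 FPKM (median -0.05). Of 9 MAPK feedback genes 7 were raised and 1 lowered (median 1.46). Of 14 FLT3-STAT5 output genes it was 5 and 5, and of 23 p53 and growth arrest genes 8 and 10. Over all genes 24.5% were raised and 27.9% lowered.

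All 11 lowered immediate early genes rose with each compound alone. This was not particular to them, as 62% of all genes that each compound raised alone were lowered. FOSL2, an AP-1 subunit, had 21, 22.1 and 21.1 FPKM with DMSO, 112, 99.8 and 100 with HPA-12, 102, 103 and 99.4 with crenolanib and 40.7, 48.6 and 52.0 with the combination (-3.32 ± 0.14). KLF6, a zinc finger factor, had 5.16, 5.83 and 4.84, then 39.2, 37.3 and 35, then 97.1, 94.0 and 96.6, and 51.3, 61.2 and 70.1 (-3.26 ± 0.15). In both, the combination lay below the crenolanib libraries. PIM1, a survival kinase and STAT5 target, was raised (37.5, 35.8 and 37.2 with DMSO, 9.44, 8.23 and 9.48 with HPA-12, 27.0, 27.0 and 29.5 with crenolanib, 60.6, 83.9 and 68.8 with the combination, 3.22 ± 0.14).

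Of 14 survival and death genes of the BCL2 family 4 were raised and 4 lowered, near the shares over all genes of 24.5% and 27.9%. MCL1, which keeps leukaemia cells alive, had 42.9, 42.4 and 42.8 FPKM with DMSO, 86.9, 83.0 and 86.2 with HPA-12, 137, 136 and 136 with crenolanib and 110.2, 124 and 123 with the combination (-1.18 ± 0.10). BMF, a pro-death member, had 73.1, 63.4 and 65.4 with HPA-12, 27.5, 28.1 and 27.6 with crenolanib and 5.80, 11.2 and 8.62 with the combination, below the 16.9, 16.8 and 17.6 of DMSO (-3.55 ± 0.22). The anti-death BCL2L1 (2.33 ± 0.22) and the pro-death PMAIP1 (1.41 ± 0.18) were both raised. No direction was shared by the survival or by the death genes named.

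Inflammatory genes held the most lowered gene. CXCL8, the neutrophil-attracting chemokine interleukin 8, had 5.85, 4.88 and 4.97 FPKM with DMSO, 118, 152 and 141 with HPA-12, 1335, 1356 and 1302 with crenolanib and 790.5, 724 and 719.6 with the combination. Its 4 groups did not overlap, each compound raised it, and the combination stood below crenolanib. Additive effects would have given 29400 FPKM, which the combination missed by 39.5-fold on the FPKM + 1 scale (-5.30 ± 0.11, adjusted p = 3.5e-15). CXCL3, another chemokine, had 14.8, 12.8 and 13.9 with HPA-12, 25.8, 20.3 and 22.9 with crenolanib and 30.1, 17.4 and 21.9 with the combination (-3.47 ± 0.22, and -2.05 with a pseudocount of 4 FPKM). The cytokine IL1B was raised (2.18 ± 0.23). Of 22 NF-kB genes and targets 5 were raised and 11 lowered (median -0.59), against 24.5% and 27.9% over all genes.

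PDCD1, the checkpoint receptor PD-1, had 0.107, 0.371 and 0.277 FPKM with DMSO, 12.7, 12.3 and 13.3 with HPA-12, 49.0, 46.0 and 47.3 with crenolanib and 15.1, 14.4 and 15 with the combination (-5.08 ± 0.21). DUSP16, a phosphatase of JNK and p38, had 2.05, 2.09 and 2.15, then 20.7, 20.9 and 21.5, then 73.0, 75.8 and 70.6, and 21.4, 29.6 and 23.9 (-4.36 ± 0.15). In both genes HPA-12 beside crenolanib brought the level back to about that of HPA-12 alone. CRLF2, a cytokine receptor chain, had an interaction of -5.16 ± 0.67, with 17.7, 17.9 and 22.4 FPKM with HPA-12 and 1.97, 2.01 and 0.954 with the combination, and -3.27 with a pseudocount of 4 FPKM.

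**Figure D4:**
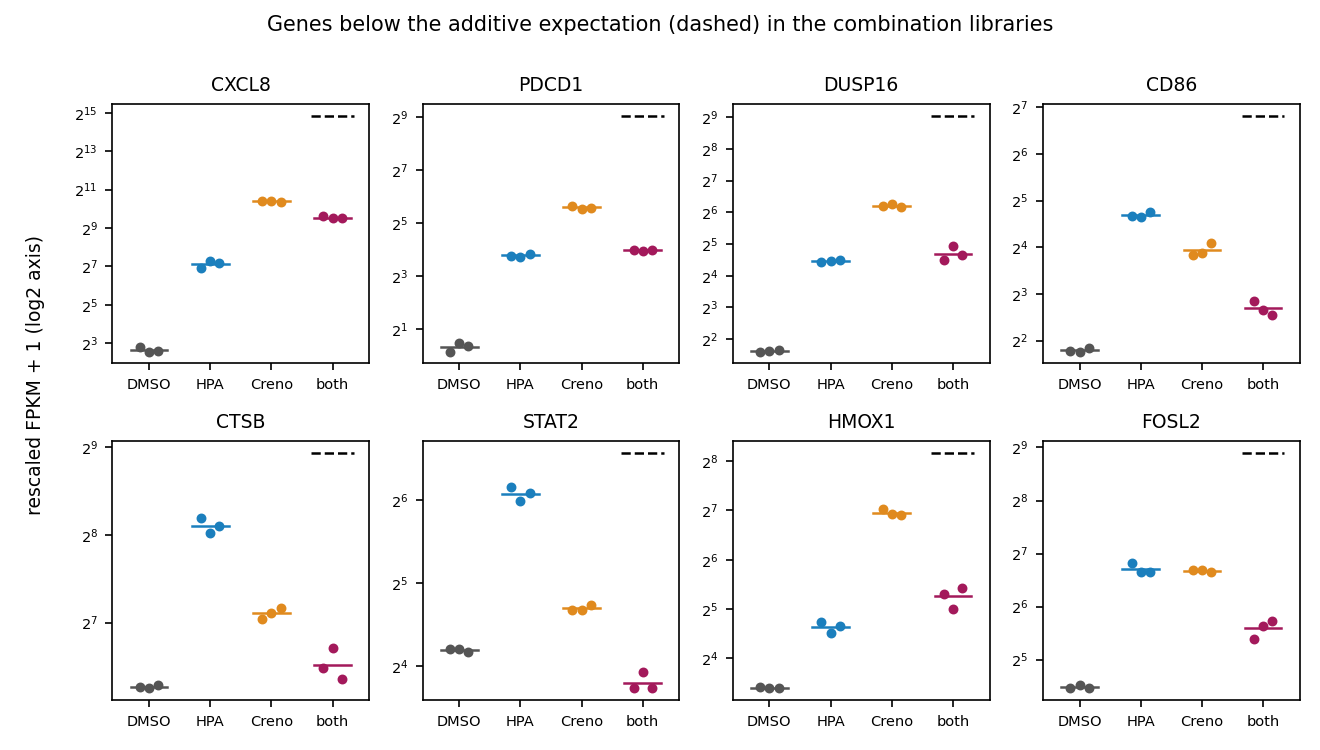
Rescaled FPKM + 1 of 8 lowered genes on a log2 axis, 1 point per library. Bars mark the group mean of rescaled FPKM and the dashed line the additive expectation from means of log2 values. In CXCL8, PDCD1, DUSP16, CD86, CTSB, STAT2, HMOX1 and FOSL2 all 3 combination libraries lie below the expectation, 29400 FPKM for CXCL8 and 534 FPKM for PDCD1, and below the crenolanib libraries.

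Interferon-stimulated genes, which cells switch on against viruses, were lowered more often than raised. Of 22 tested 0 were raised and 16 lowered (median -1.27), and the median HPA-12 effect was 1.05 alone and -0.34 beside crenolanib. Many of these genes were low: 7 averaged 5 FPKM or more, of which 3 were lowered (median -0.33), and with a pseudocount of 4 FPKM the median was -0.68 with 16 lowered. STAT2, a factor of that pathway, had 17.5, 17.5 and 16.9 FPKM with DMSO, 70.0, 62.4 and 66.8 with HPA-12, 24.5, 24.4 and 25.6 with crenolanib and 12.2, 14.2 and 12.3 with the combination (-2.78 ± 0.17). It rose with each compound and was below DMSO with both. OAS2, an antiviral enzyme, had 8.36, 7.87 and 6.92 with HPA-12 and 1.07, 1.65 and 1.71 with the combination (-2.56 ± 0.37), against 1.71, 1.62 and 1.39 with DMSO. At such levels the scale matters, and its interaction was -1.48 with a pseudocount of 4 FPKM.

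Lysosome and autophagy genes were lowered in 16 of 28 and raised in 2 (median -0.72). CTSB, the protease cathepsin B, had 75.9, 75.1 and 77.0 FPKM with DMSO, 292, 258 and 273 with HPA-12, 130.5, 137 and 143 with crenolanib and 88.1, 103 and 80.8 with the combination (-2.43 ± 0.13). LAMP1, a lysosomal membrane protein, was lowered by 1.46 ± 0.15 and NPC1, the lysosomal cholesterol exporter, by 2.3 ± 0.27. Each of these 3 rose with HPA-12 alone and fell with it beside crenolanib.

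FOXO and PI3K-AKT feedback genes had 0 raised and 9 lowered of 14 (median -0.93). TXNIP, an inhibitor of glucose uptake and of thioredoxin, had 88.0, 82.6 and 87.8 FPKM with DMSO, 182, 188 and 188 with HPA-12, 196, 199.8 and 202 with crenolanib and 145, 134 and 134 with the combination (-1.64 ± 0.10). FOXO3, a factor that AKT holds out of the nucleus, rose with each compound and had 16.1, 14.4 and 18.9 with the combination against an expectation of 32.1 (-0.93 ± 0.17). The rescaled combination levels of TXNIP and FOXO3 were still above DMSO, though those of TXNIP overlapped DMSO with FPKM as deposited. Genes of the KMT2A-fusion programme had 1 raised and 9 lowered of 16 (median -0.84), with the chromatin organiser SATB1 at -1.68 ± 0.17 and the factor SOX4 at -1.40 ± 0.19.

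Histone genes split, 5 raised and 7 lowered of 15, against 24.5% and 27.9% over all genes. H2AC6 had 14.1, 12.9 and 13.1 FPKM with DMSO, 169.5, 169 and 178 with HPA-12, 96.2, 87.1 and 97.0 with crenolanib and 44.3, 79.5 and 65.4 with the combination (-4.19 ± 0.17). It rose with each compound, and the combination libraries were below the crenolanib libraries. Histone genes are members of families of similar copies, and most of their transcripts lack a poly(A) tail, so how the libraries were made bears on their counts.

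Some genes departed from additivity although neither compound moved them far. Of 1918 genes averaging 5 FPKM or more with both single effects within 0.5 log2 units of 0, 343 were raised (17.9%) and 577 lowered (30.1%). By more than 1 unit it was 165 and 203 of them. Of all 6231 genes with that mean, tested on their own, 1950 were raised and 2043 lowered, a larger share each way than in this set. Over all genes, low ones included, the shares were 24.5% and 27.9%. RILP, an adaptor that moves lysosomes along microtubules, had 6.11, 5.89 and 6.35 FPKM with DMSO, 5.26, 5.33 and 5.10 with HPA-12, 7.01, 7.07 and 8.58 with crenolanib and 69.5, 72.5 and 75.8 with the combination (3.30 ± 0.14). GUK1, guanylate kinase, had 19.2, 18.9 and 19.1, then 15.9, 13.9 and 15.4, then 28.0, 26.9 and 24.8, and 185, 192 and 207 (3.15 ± 0.11). HK1, the first enzyme of glycolysis, was raised by 2.85 ± 0.17. In these 3 genes only the combination libraries were high.

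On the lowered side of this set the combination libraries were uneven. TCFL5, a transcription factor, had 3.16, 3.63 and 2.19 FPKM with the combination and 11.9 to 19.4 in the other 9 libraries (-2.26 ± 0.35). NRBF2, an autophagy factor, had 4.62, 7.04 and 0.166 with the combination (-2.55 ± 0.49). PRUNE1, a phosphatase, had 10.0, 0 and 0.0999 (-2.17 ± 0.57), a departure that did not pass with 1 spread for all groups and was -3.33 without combination replicate 1. TCFL5 was low in all 3 combination libraries, while PRUNE1 was within the range of the other groups in 1 of them.

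Raised genes tended to have short transcripts. By the longest transcript of each gene (GENCODE release 29, known for 11132 of the genes tested), and without mitochondrially encoded genes, the 1st of 4 equal bins, up to 2274 bases, had 36.5% raised and 18.5% lowered (median interaction 0.32). The bin of longest transcripts, from 5206 bases, had 13.3% raised and 39.6% lowered (median -0.47), with the 2 bins between at medians of -0.01 and -0.21. By level, the bin of genes with the lowest mean FPKM had 14.3% raised and 21% lowered and the highest bin 37.2% and 33.3%. When each gene was set against the median of its own length bin, the list medians were 2.85 for red cell membrane genes, 2.41 for globins, 2.11 for ribosome biogenesis, 1.73 for granule proteins, 1.07 for ribosomal proteins, -0.57 for FOXO feedback genes, -0.81 for the KMT2A programme and -1.27 for interferon-stimulated genes. The medians moved towards 0 for sphingolipid genes (from -0.32 to -0.02) and ER-associated degradation (from -0.60 to -0.35), and that of the stress sensors around the title axis turned from -0.19 to 0.02. The part that transcript length has in the results was not tested further.

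**Figure D5:**
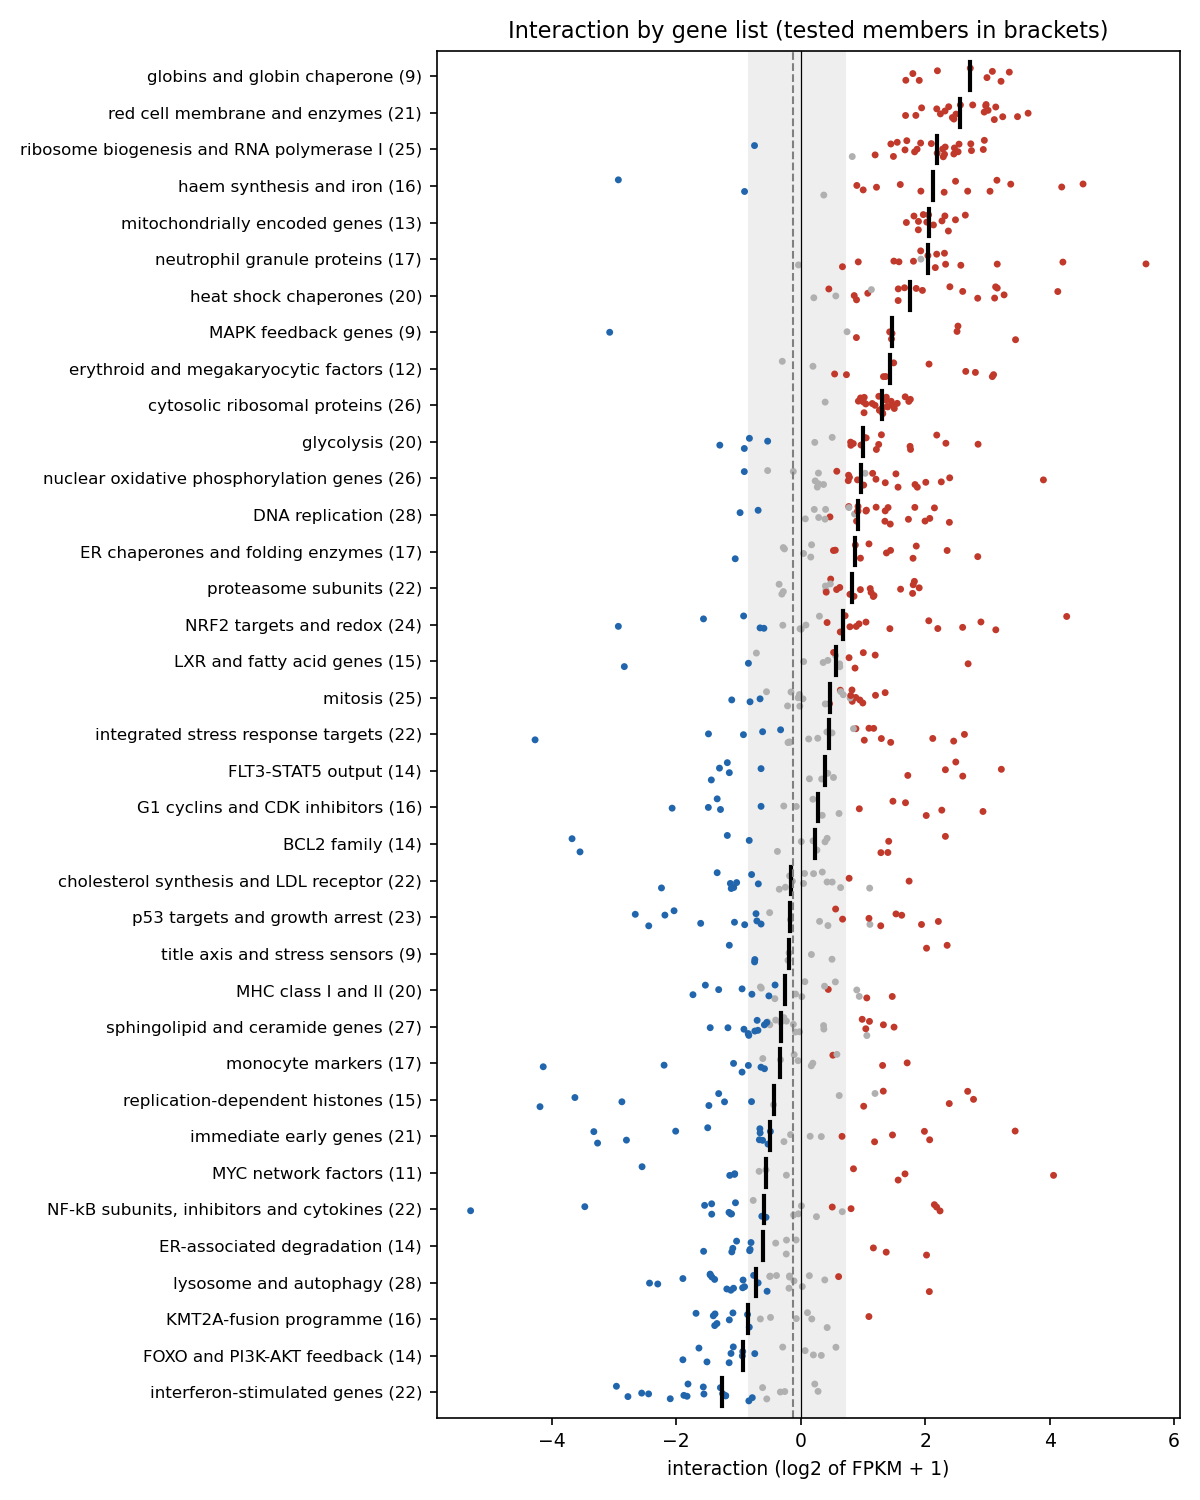
Interactions in log2(FPKM + 1) of the tested members of 37 gene lists, 1 point per gene (red raised, blue lowered, grey not called), with the list median as a black bar, the median of all genes (-0.13) as a dashed line and their middle 50% (-0.83 to 0.71) as a grey band. Globins (2.72) and red cell membrane genes (2.57) have the highest medians and interferon-stimulated genes (-1.27) the lowest.

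Lists near the middle held genes of both directions, to be set against 24.5% raised and 27.9% lowered over all genes. Of 24 NRF2 and redox genes 14 were raised and 5 lowered (median 0.68), but 7 and 10 with FPKM as deposited. Of 15 LXR and fatty acid genes 6 were raised and 2 lowered (median 0.56; -0.08 with the sum without mitochondrial genes): FASN, fatty acid synthase, was raised (2.69 ± 0.15) and ABCA1, the cholesterol exporter, lowered (-2.83 ± 0.35, and -1.5 with a pseudocount of 4 FPKM). Of 22 cholesterol synthesis genes 2 were raised and 8 lowered (median -0.16), of 20 genes of antigen presentation 3 and 7 (median -0.25), and of 16 G1 cyclins and inhibitors 6 and 5 (median 0.27, -0.26 with FPKM as deposited), with CDK4 at 2.93 ± 0.23. Scaling moved several of these counts. With FPKM as deposited, 6 endoplasmic reticulum folding genes were raised and 3 lowered, 8 proteasome subunits and 4, 11 nuclear oxidative phosphorylation genes and 3, and 8 glycolytic genes and 5, while the medians turned to -0.43 for the BCL2 family and -0.29 for FLT3-STAT5 output.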

How the data were processed

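The deposited table holds FPKM per gene and library, computed by the authors, per the file headers. For the aligner, the counting and the genome build, details were not given in the sources used here. Read counts were not used, and the depth of each library is unknown, so no counting interval is given. All 12 value columns were matched to samples by name, with 0 columns left over, and Creno and Creon were read as 1 compound. Symbols were found for 19418 of 20036 identifiers.

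Libraries were rescaled by median-ratio factors over genes above 0 in all 12 libraries, with mitochondrially encoded genes left out. Group means of log2(FPKM + 1) were estimated by limma 3.58.1 (R 4.3.3) with precision weights per group (voomaByGroup) and robust empirical Bayes (statmod 1.5.0). P-values are 2-sided and adjusted by Benjamini-Hochberg over 11149 genes at 0.05. Data of 11149 genes were simulated with normal noise around the smoothed trend of spread with level in each group, not with each gene's own spread. The interaction test recovered 13% of departures of 0.5 log2 units, 63% of 1 and 96% of 2. There were 22 false calls, 0.203% of the unchanged genes. As a share of the genes called, these exceeded the 0.05 that the adjustment aims at. In the simulation 100 genes were given each size, none of them at a low expected level, and all other genes had no interaction. In the data 52.4% of genes were called, so the shares recovered and falsely called there can differ.

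Genes named are the 15 most raised and 15 most lowered with a mean of at least 5 FPKM, 10 fixed genes, up to 4 genes of smallest p per list, 3 per class of HPA-12 effects, and 5 each way among genes with single effects near 0. Not all are given. The members and lists were chosen with earlier results of these data known. Alternatives were the scaling, pseudocount, filter, spread model, a replicate block and leaving out each library. GENCODE release 29 gave transcript lengths and RefSeq (GRCh38.p14) promoters. Some results of single genes are not reported here.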

Additional observations from a re-analysis of the deposited data

Results flagged for a closer look

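HPA-12 effects of opposite sign without and with crenolanib, with the interaction called, were found for 724 genes that HPA-12 lowered alone and raised beside crenolanib and for 912 genes that it raised alone and lowered beside it. The difference between the 2 effects was tested as the interaction itself. Among them are MPO, with an interaction of 5.55, and CXCL8, with -5.30. With 3 libraries a group, single libraries were not tested for standing apart from their group.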

How the results depend on the processing

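Library scaling moved the counts for the interaction and for HPA-12 beside crenolanib. The spread model moved counts for HPA-12 in both settings, and the filter those for HPA-12 alone and for genes lowered in the interaction. Raised genes numbered 2737, 1699 with FPKM as deposited and 1552 with the sum without mitochondrial genes. Lowered genes numbered 3109, 5555 and 5854 in the same order, and 2043 when a mean of at least 5 FPKM was required, which tests fewer genes. HPA-12 alone raised 4678 genes, 2538 with that filter and 2658 with 1 spread for all groups, and lowered 3924, 2468 and 2474. Beside crenolanib it raised 1573, 784 with FPKM as deposited, 798 with the sum and 2188 with 1 spread for all groups. It lowered 1451, 5501, 5445 and 2915 in the same order. Leaving out 1 library gave 2654 to 2763 raised and 2917 to 3174 lowered genes. With a replicate block, 2909 were raised and 3348 lowered. Same-numbered libraries did not deviate together (correlations of -0.029 to 0.084, and -0.098 to 0.066 for different numbers), so the numbers were not taken to pair them. Among named genes, DDIT3 changed sign with FPKM as deposited (-0.04), with the sum (-0.11) and without combination replicate 2, with leave-one-out values from -0.00 to 0.98, and ATF4 had a positive sign (1) when FPKM were added.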
